A study of Mus musculus with 2 samples.

Results

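Runx1 peaks at core promoters are the Runx1 ChIP-seq peaks whose centre lay within 1000 bp of the nearest transcription start site (TSS) of a protein-coding transcript. They numbered 618 of the 3531 Runx1 peaks of the library, or 17.5% (95% interval 16.3 to 18.8). The regions within that distance of a coding TSS cover 2.31% of the mouse genome (mm9). The 618 peaks had 610 different nearest genes, and 705 of the 22238 protein-coding gene names of the annotation (3.17%) had a TSS within the limit of a peak.

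Both libraries came from CD4+ CD8+ double-positive (DP) thymocytes, the thymic T-cell precursors that carry both co-receptors. The cells were sorted magnetically from the thymus of C57BL/6 mice, aged 4 to 6 weeks by the study's methods, with no transgene, deletion or treatment named in the labels. One group is the chromatin precipitated with an antibody against Runx1, and the other is the input, the same kind of chromatin with no antibody. The study's methods list the same antibody catalogue number for this ChIP as for a ChIP of a histone mark, while the labels list a different one. Each group was 1 library, whose number of animals is not stated, so no value below has a replicate check. Read counts are not given, so depth is unknown, and intervals and p-values cover counting error over the peaks or genes of single libraries only.

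Runx1 is the DNA-binding subunit of core-binding factor. It contacts DNA through its Runt domain, together with the partner Cbfb, at the consensus TGTGGT, and TGCGGT is the known variant of the same site. In thymocytes Runx factors are known for silencing Cd4, for activating Cd8 and for acting at antigen receptor genes, largely from enhancers and silencers, and a core promoter is the stretch around the TSS where RNA polymerase II is assembled. TGTGGT is called the T form here and TGCGGT the C form.

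The sequences below show the T form of the RUNX motif in core promoter peaks at genes of T-cell function and in 1 of the 10 peaks of highest score. Each line gives 30 bases of mm9, read 5′ to 3′ on the strand on which the motif reads TGTGGT, with each copy of the motif in capitals. The distance is that of the peak centre from the TSS, negative upstream.
Lck, 314 bp upstream of an internal TSS, chr4:129235954-129235983, minus strand: tctgaaggagacTGTGGTtgagtggtgggg
Lck, 14 bp downstream of the most upstream TSS, chr4:129250926-129250955, minus strand: gtgctggaggctTGTGGTtgggttgctggg
Lat, chr7:133513070-133513099, plus strand: gcgacaggaagcTGTGGTgagggcaggaaa
Nedd9, chr13:41582683-41582712, minus strand: acatccgacgggTGTGGTtgctcagtagag
Rag1, chr2:101489753-101489782, minus strand: gctatcatcatcTGTGGTtagccgtctgtg
Ccr7, chr11:99016478-99016507, minus strand: atgacagccgaaTGTGGTtatcacatacct
Hdac7, chr15:97674784-97674813, plus strand: gaggggagctgcTGTGGTtgggttatctga
Patz1, chr11:3198588-3198617, plus strand: aagtaagtgcttTGTGGTtaagagtgaata
AI467606, chr7:134234761-134234790, minus strand: gcaacctggggaTGTGGTcagTGTGGTgaa

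The C form differs from the T form by a C in place of the T in the middle of the motif, which makes a CpG. The next lines give it in the same layout for peaks of high score and for Cd8a and Runx1 itself.
Msh6, chr17:88374066-88374095, minus strand: tgcgggcggtccTGCGGTtggactgaaagg
Limd2, chr11:106020831-106020860, plus strand: gggttggggggcTGCGGTtgggactttccc
Kdm5a, chr6:120314362-120314391, plus strand: gattttgtttccTGCGGTggcggactgatt
Creb1, chr1:64578631-64578660, plus strand: tcagagagcagtTGCGGTagctttgaggct
Rbbp5, chr1:134373614-134373643, plus strand: ttcccgctttccTGCGGTagaaagaatcgc
Cd8a, chr6:71323452-71323481, minus strand: gggcggaggaggTGCGGTgggggaggcgtg
Runx1, chr16:92697116-92697145, minus strand: cgctccacctgcTGCGGTtacacggtgctc

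For 2 peaks that touched no exon the whole 187 bases of the peak are given on the strand of the gene, with either form in capitals, also where it lies on the other strand and so reads ACCACA or ACCGCA.
Lck, chr4:129235856-129236042, minus strand: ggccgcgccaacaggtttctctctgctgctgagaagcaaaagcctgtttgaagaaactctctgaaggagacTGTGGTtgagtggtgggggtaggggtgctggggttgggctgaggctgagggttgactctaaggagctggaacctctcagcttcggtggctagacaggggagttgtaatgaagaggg
Msh6, chr17:88374043-88374229, plus strand: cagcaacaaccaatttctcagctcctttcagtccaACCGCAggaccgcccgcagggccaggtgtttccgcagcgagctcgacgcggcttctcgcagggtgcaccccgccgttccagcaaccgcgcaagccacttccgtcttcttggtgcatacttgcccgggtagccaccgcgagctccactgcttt

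Core promoter peaks lay close to the TSS and more often on its upstream side. The centre was within 50 bp of the TSS for 185 of the 618 peaks (29.9%), within 100 bp for 273 (44.2%), within 250 bp for 425 (68.8%) and within 500 bp for 517 (83.7%). The median distance without regard to side was 123 bp, with quartiles of 38 and 332 bp. Only 38 peaks lay between 750 and 1000 bp away, so few peaks were near the limit of the definition. The last peaks inside it were at Slk, with a score of 16 at 984 bp upstream, and at Dusp2, with a score of 33 at 983 bp upstream. The nearest peaks outside it were at Mex3a, with a score of 16 at 1004 bp upstream, and at Sec24b, with a score of 30 at 1006 bp downstream.

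Of the 617 peaks not exactly at a TSS, 376 were upstream and 241 downstream, which made 60.9% upstream (two-sided exact binomial test for equal numbers on each side, p = 6.11e-08, 2.45e-07 after Benjamini-Hochberg adjustment over the 4 main tests). Any p-value given below without an adjusted one lies outside these 4 and is unadjusted. Divergent coding gene pairs are 2 coding genes that point apart, with TSSs under 1.5 kb apart. A centre between the TSSs of such a pair is upstream of both genes, and a centre beyond them is downstream of the nearer gene. At these pairs 42 of 83 peaks (50.6%) were upstream. Outside such pairs 334 of 535 (62.4%) were upstream. The centre fell outside protein-coding genes for 276 peaks (44.7%), in an exon of a UTR for 162 (26.2%), in an intron for 154 (24.9%) and in a coding exon for 26 (4.21%). For the 407 peaks at genes with several TSSs, the nearest was the most upstream TSS in 224 (55.0%).

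**Figure D1:**
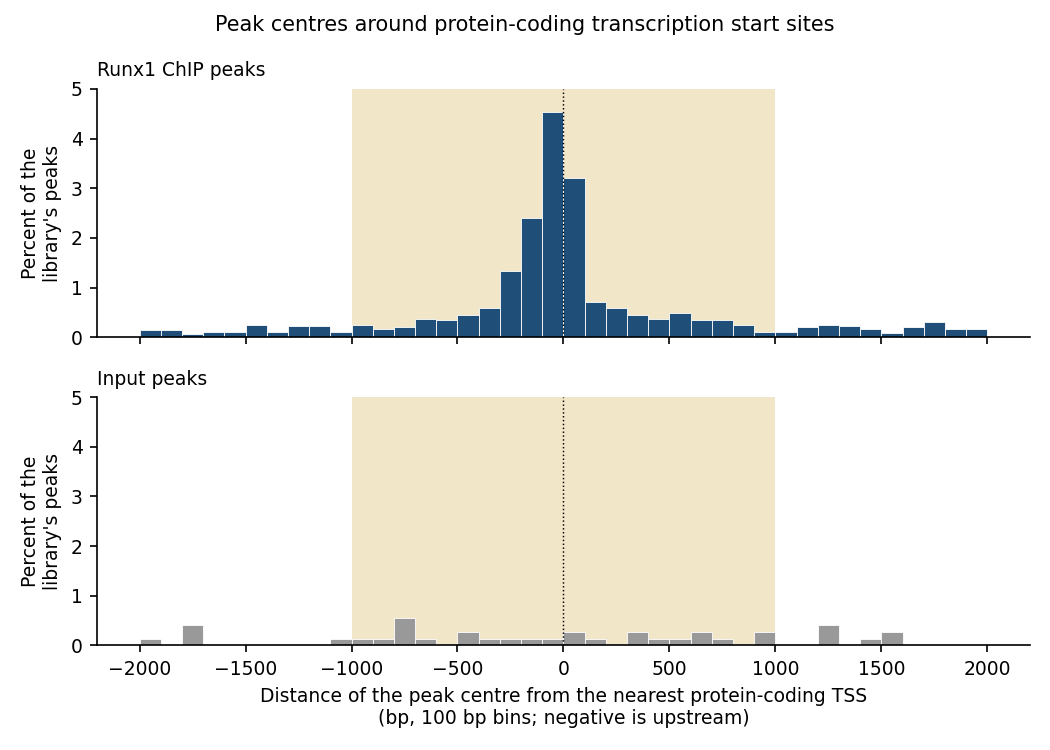
Share of each library's peaks in 100 bp bins of the distance between the peak centre and the nearest protein-coding TSS, with Runx1 ChIP peaks above and input peaks below and the 1000 bp limit shaded. Runx1 peaks pile up at the TSS, with 4.53% of all peaks in the first 100 bp upstream and 3.20% in the first 100 bp downstream, while input peaks form no such pile.

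The input shows what the same counting gave without antibody. Of its 740 peaks, 25 (3.38%, 2.20 to 4.95) were centred within 1000 bp of a coding TSS, and on autosomes 24 of 528 (4.55%) were, against 612 of 3438 (17.8%) of the Runx1 peaks there. None of the 618 core promoter peaks was overlapped by an input peak, which allows a share of up to 0.595%, whereas 35 of the 2913 other Runx1 peaks (1.20%) were. The study's methods name a minimum enrichment over input for its peak calling, so the calling itself may limit these overlaps. Whether this input library was the control for the Runx1 peaks is not stated. An input peak was centred within 1 kb of the nearest TSS for 1 of the 618. On the X and Y chromosomes lay 6 of the core promoter peaks.

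Scores are the deposited value per peak, whose meaning the files do not name. They are used to order peaks and to compare groups of peaks within the Runx1 list only, and not as a measure of binding strength. Core promoter peaks had scores from 14 to 94 with quartiles of 16, 18 and 21, and the other 2913 Runx1 peaks from 14 to 129 with quartiles of 16, 18 and 23. The mean log2 score at core promoters minus that of the other peaks was -0.04, which did not pass the threshold of 0.05 (permutation test, two-sided, p = 0.0509, adjusted p = 0.0509). With a limit of 500 bp or 2000 bp in place of 1000 bp it was -0.060 and -0.049 and passed (permutation tests, unadjusted p = 0.00918 and 0.0146). The share of Runx1 peaks at core promoters was 16.6% at scores of 16 to 17, 21.7% at 18 to 20, 18.4% at 21 to 29 and 13.3% (66 of 496, 10.4 to 16.6) at 30 or more. That last interval lies below the 17.5% of all Runx1 peaks, as does that of the upper quartile of score (14.7%, 12.6 to 17.0). Of the 229 peaks with a score of at least 40, 30 (13.1%, 9.02 to 18.2) were at core promoters, an interval that includes it.

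The core promoter peak with the highest score, 94, lay 64 bp upstream of Cltc, the clathrin heavy chain gene of vesicle transport. It held neither form of the RUNX motif. Next was a peak with a score of 80 at the divergent pair of 2810046L04Rik and Nhlrc3, also with neither form. Zfp13, a zinc finger gene, had a score of 77 in an intron 471 bp downstream of its TSS, with both forms. Limd2, which encodes a LIM domain protein, had 75 at 384 bp downstream of the last of its 3 TSSs, with the C form.

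A score of 70 was shared by 3 peaks. The peak 254 bp upstream of Msh6, a subunit of the DNA mismatch repair sensor, held the C form. The peak at Ccdc77 and Kdm5a, which encodes a histone H3 lysine 4 demethylase, lay 16 bp upstream of Ccdc77 and 248 bp downstream of the last of the 2 TSSs of Kdm5a, with the C form and an ETS motif. The peak 153 bp upstream of AI467606 held 2 copies of the T form.

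The remaining peaks of the 10 highest were at Creb1, Suv420h1 and Atp2a3. Creb1, the cyclic AMP responsive factor, had a score of 61 at 726 bp upstream, with the C form. Suv420h1, a histone H4 lysine 20 methyltransferase, had 61 at 13 bp upstream of an internal TSS. Atp2a3, a calcium pump of the endoplasmic reticulum, had 59 in an intron 765 bp downstream. Neither of these last peaks held a RUNX motif. So 6 of the 10 held at least 1 of the forms, with the C form in 5 of them and the T form in 2.

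Genes of T-cell receptor (TCR) and co-receptor signalling carried core promoter peaks at 11 of 57 genes measured (19.3%, 10.0 to 31.9), beside 3.17% of all protein-coding genes. These genes encode the chains, kinases, adaptors and phosphatases through which a thymocyte reads its receptor. They held 12 peaks that scored between 18 and 44, with a median of 22, against a median of 18 over all core promoter peaks. The T form was present in 7 of the 12 peaks and at least 1 form in 9, against 136 and 246 of all 618.

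Lck, the kinase that phosphorylates the CD3 chains, had 2 peaks. The peak with the higher score, 44, lay 314 bp upstream of an internal TSS. That TSS is 15250 bp downstream of the most upstream TSS of the gene. The other peak scored 18 and was centred 14 bp inside that most upstream TSS. Both held the T form. Lat, the adaptor that links the receptor to calcium and Ras signalling, had a score of 33 at 50 bp upstream. Nedd9, a docking protein of integrin and receptor signalling, had a score of 33 at 37 bp upstream, with an ETS motif beside the T form.

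Of the phosphatases that shut off MAP kinases, Dusp2 had a score of 33 at 983 bp upstream with the T form, and Dusp5 a score of 23 at 122 bp upstream with neither. Cd8a, the co-receptor chain of the cytotoxic lineage, had a score of 26 at 12 bp upstream, with the C form and not the T form. The other 6 peaks of the list are outside the rule for named genes and are given because they complete it. Ptpn22 and Cd3e had scores of 21, at 23 bp upstream and 272 bp downstream, and Cd3g, Cd6, Themis and the second Lck peak had scores of 18 within 17 bp of a TSS, which at Cd6 and Themis was not the most upstream of the gene. The T form was in the Ptpn22 and Cd6 peaks and the C form in the Cd3e peak.

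T-cell transcription factors had a core promoter peak at 7 of 55 genes (12.7%, 5.27 to 24.5), beside 3.17% of all genes. Tcf12, which encodes the E protein HEB, had a score of 35 at 921 bp downstream, and Satb1, a genome organiser of thymocytes, a score of 26 at 9 bp upstream of the most upstream of its 13 TSSs. Neither held a RUNX motif. Patz1, a zinc finger repressor, had a score of 23 at 369 bp downstream of the last of its 4 TSSs with the T form.

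Runx1 itself had a score of 18 at 409 bp downstream of the third of its 5 TSSs, which is 128738 bp downstream of the most upstream one, and the C form was present there. Sox4, an HMG-box factor, had a score of 18 at 231 bp upstream. Zeb1, a zinc finger E-box repressor, had a score of 16 and falls outside the rule for named genes.

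Antigen receptor recombination genes had a peak at 4 of 18 genes (22.2%, 6.41 to 47.6), beside 3.17% of all genes. The peak at Rag1, the catalytic subunit of the V(D)J recombinase, had a score of 40, lay 108 bp upstream of its TSS and held 2 copies of the T form. By distance it belonged to B230118H07Rik, the nearer gene at 77 bp. Dclre1c, which encodes the hairpin-opening nuclease Artemis, had a score of 21, Lig4, the end-joining ligase, 18, and Atm, the DNA break kinase, 16. These last 3 peaks lay at divergent pairs and held neither form.

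Cytokine, chemokine and adhesion receptors had a peak at 4 of 54 genes (7.41%, 2.06 to 17.9), an interval that includes the 3.17% of all genes. All 4 peaks held a RUNX motif, against 246 of all 618. Cxcr4, the receptor that guides thymocytes in the cortex, had a score of 28 at 895 bp downstream of the last of its 2 TSSs with the C form. Ccr7, the receptor for migration to the medulla, had a score of 26 at 65 bp upstream. Itgb2, the common chain of leukocyte integrins, and Selplg, a selectin ligand, had scores of 18 at 10 bp downstream, by the last of 3 TSSs, and 3 bp upstream. These last 3 held the T form.

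Cell cycle, growth arrest and survival genes had a peak at 5 of 56 genes (8.93%, 2.96 to 19.6), an interval that includes the 3.17% of all genes. Tob2, a gene of the antiproliferative BTG/TOB family, had a score of 56 at 1 bp upstream of an internal TSS, with neither form. Ccnd3, the cyclin D of pre-TCR-driven proliferation, had a score of 21 at 4 bp downstream with the C form. Cdk4, Mycn and Akt2 had scores of 18, with the T form at Cdk4 and the C form at Mycn and Akt2.

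Chromatin regulators had a peak at 8 of 104 genes (7.69%, 3.38 to 14.6), beside 3.17% of all genes, and their peaks scored between 16 and 70, with a median of 29.5. After Kdm5a, with 70, came Rbbp5, a subunit of the histone H3 lysine 4 methyltransferase complexes, with 47 at 261 bp upstream and the C form. Kdm3a, a histone H3 lysine 9 demethylase, had 44 at 280 bp upstream with neither form. Rbbp4, a histone-binding subunit shared by several complexes, had 33 at a peak 531 bp upstream that was nearer to its divergent partner Zbtb8os. Hdac7, a class IIa deacetylase of thymocytes, had 26 at 63 bp upstream of the second of its 10 TSSs with the T form. The remaining peaks, at Kdm5b, Asxl1 and Eed, had scores of 16 and neither form.

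Heat shock and protein folding genes had a peak at 6 of 61 genes (9.84%, 3.70 to 20.2), beside 3.17% of all genes, and 1 of the 6 held a RUNX motif, against 246 of all 618. Trap1, the mitochondrial HSP90, had a score of 42 at 8 bp downstream of the last of its 2 TSSs with the C form, and Hsp90ab1, Hspa9, Bag1, Hsph1 and Chordc1 had scores of 16 or 18. Of the transcription machinery, 2 of 83 genes (2.41%, 0.293 to 8.43) had a peak. These were Ccnt2, a cyclin of the elongation kinase P-TEFb, with a score of 30 at 216 bp upstream and the T form, and Ell, an elongation factor, with a score of 16 at 594 bp upstream and neither form. That share is near that of all genes.

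No core promoter peak was found at 15 B-cell markers, 20 myeloid and dendritic markers, 20 markers of thymic stroma and endothelium or 45 genes of other tissues. With lists this short, the exact 95% intervals reach up to shares of 21.8%, 16.8%, 16.8% and 7.87%, and each includes the 3.17% of all genes.

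Base composition was also read in these windows. The ratio of observed to expected CpG in the 201 bp around the centre was at or below 0.6 in 265 of all 618 core promoter peaks. It was so in 11 of the 12 peaks at signalling genes, in 3 of the 7 at T-cell transcription factors, in 2 of the 4 at recombination genes and in 3 of the 4 at receptor genes. In the other lists it was so in 1 of the 5 peaks at cell cycle genes, in 1 of the 8 at chromatin regulators, in 0 of the 6 at heat shock genes and in 0 of the 2 at the transcription machinery. Core promoter peaks as a whole had a median ratio of 0.68, the other Runx1 peaks 0.28 and all coding TSSs 0.61.

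RUNX motifs were found in a minority of core promoter peaks. Within 100 bp of the centre, on either strand, the T form was present in 136 of 618 (22.0%, 18.8 to 25.5). The windows of the same length at all protein-coding TSSs held it in 9.94%. Windows 1 kb from the peak centre, on the side away from the TSS, held it in 89 of 618 (14.4%), so that the centre exceeded the flank by 7.61 percentage points, with the T form only at the centre for 120 peaks and only in the flank for 73 (exact McNemar test, two-sided, p = 8.82e-04, adjusted p = 0.00176).

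The T form was less frequent than at the other Runx1 peaks, where 799 of 2913 (27.4%) held it, a difference of -5.42 percentage points (Fisher's exact test, two-sided, p = 0.00573, adjusted p = 0.00764). The difference did not pass the threshold with a limit of 2000 bp (-1.10 points, Fisher's exact test, p = 0.574), with the longer motif TGTGGTT (-2.62 points, p = 0.0867) or in the upper quartile of score (-6.34 points, p = 0.133). Its direction turned with the motif. The C form, a comparison added after the data were seen, was present in 130 of 618 core promoter peaks (21.0%) against 212 of 2913 others (7.28%), a difference of 13.8 points (Fisher's exact test, two-sided, unadjusted p = 1.19e-21). With either form counted, the shares were 246 of 618 (39.8%) and 32.3%, a difference of 7.54 points (Fisher's exact test, two-sided, unadjusted p = 3.64e-04). Both forms together were present in 20 core promoter peaks, and 372 held neither.

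The C form holds a CpG, and core promoter peaks are richer in CpG than the others, so the shares are also given within classes of that ratio. Above 0.6, the C form was in 24.6% of 353 core promoter peaks, 7.87% of the other peaks and 8.41% of all coding TSSs. At or below 0.6, it was in 16.2% of 265, 7.21% and 3.05%. The T form was in 17.0%, 13.1% and 5.75% above 0.6 and in 28.7%, 29.1% and 14.2% at or below. No test was run within the classes.

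**Figure D2:**
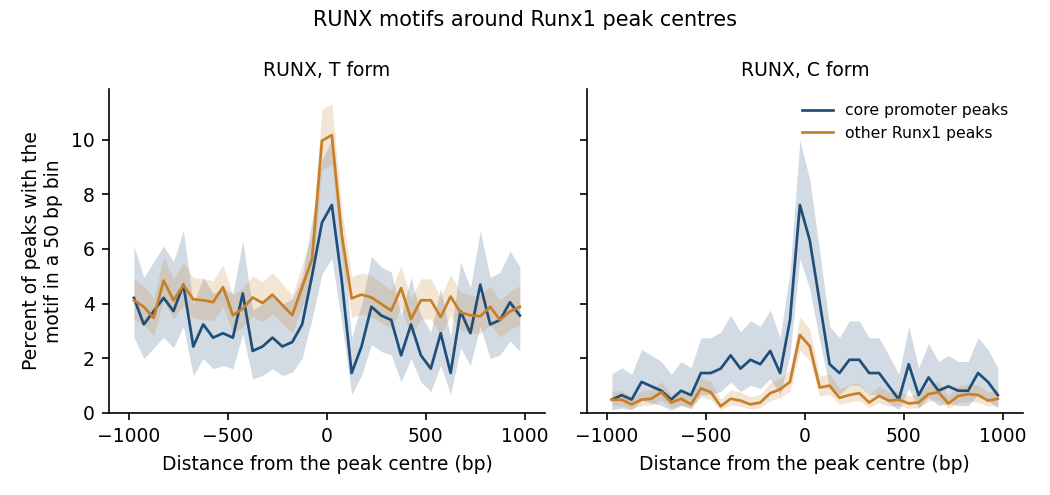
Share of peaks with each RUNX motif form in 50 bp bins around the peak centre, with exact 95% intervals shaded, for core promoter peaks and other Runx1 peaks. Both forms peak at the centre in both sets. At core promoters the C form reached 7.61% of peaks in the central bins and was never above 2.10% in bins beyond 200 bp, and at the other peaks the T form reached 10.2% against a highest value of 4.84%.

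The T form lay near the centre of the peaks that held it, within 25 bp for 50 of 136 (36.8%) and within 50 bp for 83 (61.0%). It was on the strand of the gene in 72 of 136 (52.9%, 44.2 to 61.6), and 17 peaks held more than 1 copy. Its share was 21.6% within 250 bp of the TSS and 22.8% beyond. By score, the T form was in 19.1% of core promoter peaks with a score of 16 to 17, in 20.1% at 18 to 20, in 21.9% at 21 to 29 and in 24 of 66 (36.4%, 24.9 to 49.1) at 30 or more, and the C form in 15.9%, 24.5%, 21.9% and 30.3%.

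Motifs of other promoter-binding families were counted in the same windows. The ETS motif CCGGAAG was present in 86 core promoter peaks (13.9%, 11.3 to 16.9), in 3.16% of the other Runx1 peaks and in 8.61% of all coding TSSs. Within the class of CpG ratio above 0.6 the shares were 20.4%, 3.28% and 14.6%, and at or below 0.6 they were 5.28% (2.92 to 8.71), 3.14% and 2.55%. ETS and the T form occurred together in 20 peaks, and the ETS share was 14.7% in peaks with the T form and 13.7% in those without. GGGCGG, the box of the SP and KLF factors, was in 37.1% of core promoter peaks and in 38.6% of coding TSSs, and CCAAT, read by NF-Y, in 27.2% and 24.6%. TATAAA was in 2.59% and 6.69%.

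**Figure D3:**
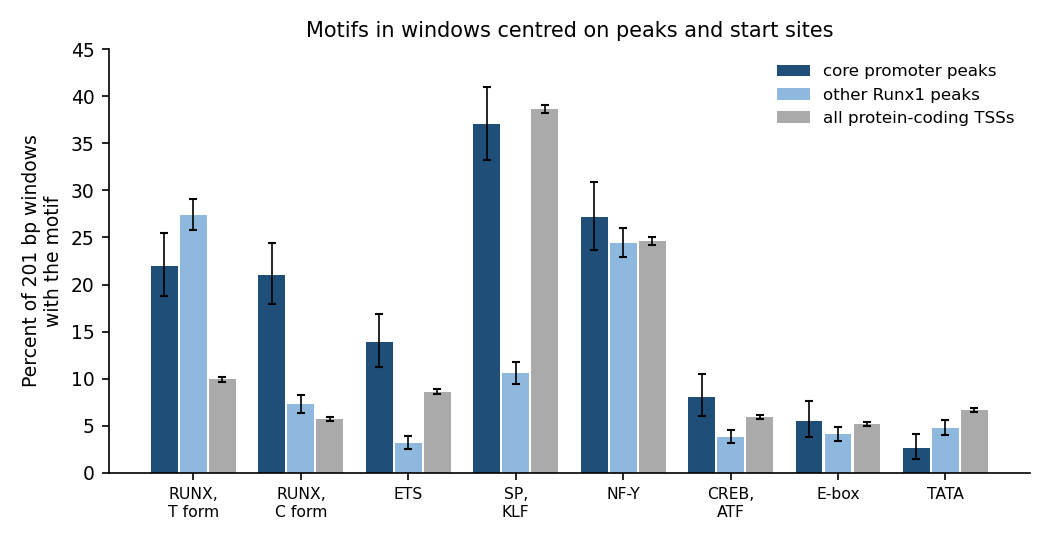
Share of 201 bp windows that hold each motif on either strand, with exact 95% intervals as bars, for core promoter peaks, other Runx1 peaks and all protein-coding TSSs. The RUNX C form stands at 21.0% at core promoters against 7.28% and 5.75%, while the SP and KLF box is about as frequent there (37.1%) as at all TSSs (38.6%).

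The study asked which promoters give rise to a long upstream antisense transcript (LUAT), and the genes it listed with a LUAT in DP thymocytes or their CD4- CD8- (DN) precursors were set against all other genes. Of the 741 listed genes found in the annotation, 73 (9.85%, 7.80 to 12.2) had a core promoter peak. Of the 21497 other protein-coding genes, 632 (2.94%, 2.72 to 3.17) did. Counting only peaks in the upper quartile of score, a score of 23 or more, the shares were 2.83% (21 genes) and 0.712% (153 genes). The intervals of the shares over all peaks do not overlap. No test was run here on the list, whose genes were not matched to the others in any property. The study had itself set LUAT-associated genes against control genes for Runx1 and other lymphoid factors, and reported their peaks more often at the former. That comparison used a wider window around the TSS and control genes of similar expression. The shares given here do not repeat it.

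Genes of divergent coding pairs, another kind of promoter with transcription in both directions, were counted in the same way. Of 2274 such genes 180 (7.92%, 6.84 to 9.10) had a core promoter peak, and of the 19964 other genes 525 (2.63%). A peak in such a pair often lies within the limit of both genes and is then counted for both. A gene of a pair is also counted when the TSS nearest its peak is not a TSS of the pair, as at Hdac7. Of the 618 peaks, 83 (13.4%) were at such pairs. Apart from the pairs, 67 of 696 LUAT-associated genes (9.63%) had a peak, and apart from the LUAT list 174 of 2229 genes of pairs (7.81%) did. Of the 19268 genes in neither class, 458 (2.38%, 2.17 to 2.60) had a peak.

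At LUAT-associated genes there were 73 peaks. Their median score was 18, as at the 545 peaks elsewhere, and the T form was in 18 (24.7%) against 118 (21.7%). They were upstream of the TSS in 50 of 73 and elsewhere in 326 of 545. The median distance from the TSS was 200 bp against 119 bp.

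The highest scores at LUAT-associated genes were those of Kdm5a (70), Tob2 (56) and Rbbp5 (47), described above. Arpp21, a phosphoprotein gene, followed with 37 at 19 bp upstream of an internal TSS and the T form. Nedd9 and Dusp2 had 33. Ccnt2, Tctex1d1 and the Gimap7 and Gimap1 promoter, of the GTPases of immunity-associated proteins, had 30. Tspyl4, at 11 bp downstream, and Nfkb2, the gene of an NF-κB subunit, at 420 bp upstream, had 28 and the C form. Satb1, Cd8a and Itgb2, described above, are LUAT-associated as well.

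**Figure D4:**
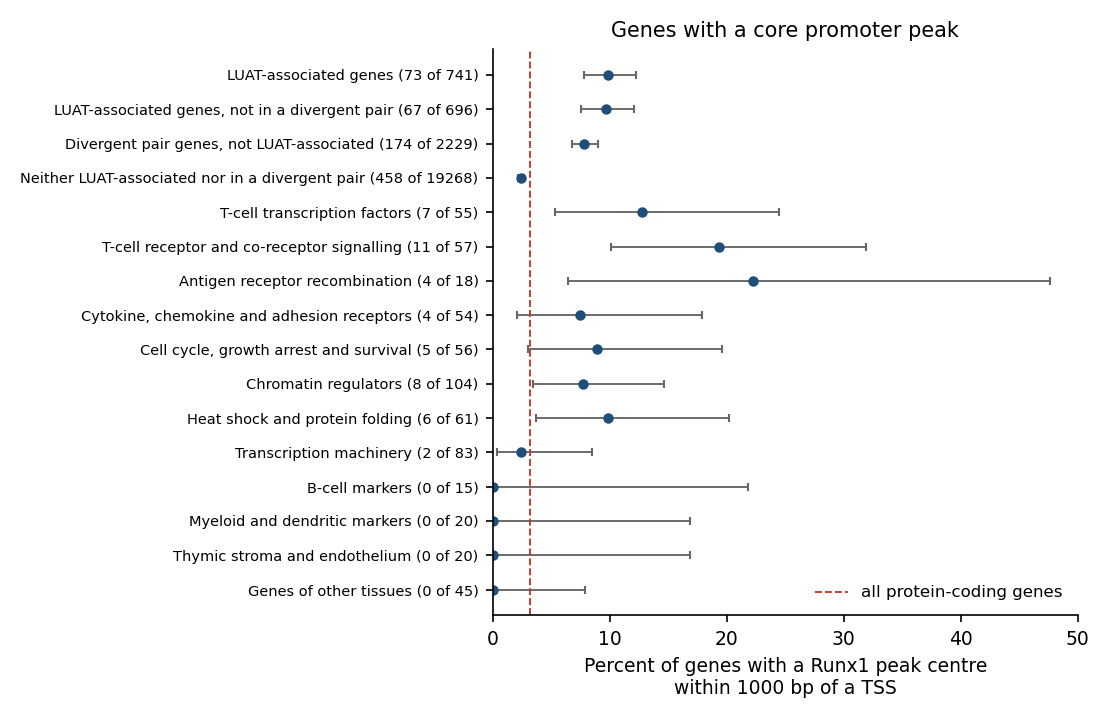
Percent of the genes of each list with a core promoter peak, with exact 95% intervals as bars, the numbers of genes in brackets and the share of all protein-coding genes (3.17%) as a dashed line. LUAT-associated genes and genes of divergent pairs lie right of the line with narrow intervals, and the 4 lists of other cell types and tissues are at 0 with wide ones.

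Most core promoter peaks were single. For 520 of the 618 (84.1%) only 1 gene had a TSS within the limit, and 8 genes were nearest to 2 peaks each: Endou, Lck, Mei4, Obfc2b, Rbm39, Traf3ip3, Tufm and Ywhaz. At Endou both peaks held the T form, with scores of 21 and 23, as did both at Mei4, with scores of 16 and 26, and both at Lck. At Traf3ip3, which encodes a TRAF3-interacting protein of lymphocytes, the peak 1 bp downstream had a score of 26 and no T form, and the peak 404 bp downstream a score of 16 and the T form. At Rbm39 and Ywhaz neither peak held it.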

How the data were processed

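Runx1 ChIP and input were each 1 library of sorted DP thymocytes, sequenced on AB SOLiD instruments after 15 PCR cycles, with 10 µg of antibody for the ChIP. The authors deposited, per library, a list of peak positions with a score per peak. The labels name mm9 and HOMER, the study's methods name HOMER at default settings for peak calling, with limits on the false discovery rate and on enrichment over the local background and input, and the aligner and the calling of input peaks are not given in the sources used here. All 3531 Runx1 peaks but 1 were 187 bp long, and input peaks 171 bp.

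Positions were converted to 1-based coordinates on NCBIM37 (mm9) and compared with the 45982 TSSs of 51733 protein-coding transcripts of GENCODE vM1. Motifs were searched on both strands in 201 bp of genome. Shares carry exact Clopper-Pearson 95% intervals. Tests were an exact binomial, an exact McNemar, a Fisher's exact and a permutation test with 100000 resamples, two-sided, threshold 0.05. The distance search was checked on peaks placed at known distances and the motif search on random sequence with implanted motifs. Fisher's exact test was checked on simulated counts, and the other tests were not checked in this way. Genes named were the 10 highest scores, up to 6 of each list, the 10 highest at LUAT-associated genes with ties, and 2 on each side of the limit. The members and lists were chosen with earlier results of these data known. From the study's list of LUAT-associated genes the names were used, of which 741 of 745 matched, and, in 1 alternative, the TSSs of its transcripts. Gfi1 and Ptcra had no coding transcript in the annotation. An item that falls under the rule for named genes is counted in its list but not reported here. Software was pysam 0.24.0, scipy 1.17.1, matplotlib 3.10.9, pandas 2.3.3 and numpy 2.4.6 under Python 3.11.15.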

Additional observations from a re-analysis of the deposited data

How the results depend on the processing

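Of 63 alternative values for 9 results, 43 kept their direction, their side of the threshold and, for shares, their value within counting error. The share of Runx1 peaks at core promoters was 14.6% with a limit of 500 bp, 20.9% with 2000 bp, 15.3% with the TSS of the longest transcript only and 14.7% in the upper quartile of score. The T form share was 13.3% within 50 bp of the centre, 25.6% with a limit of 2000 bp, 27.3% in the upper quartile of score, 39.8% for TGYGGT and 10.8% for TGTGGTT. The T form difference from other peaks turned to 7.54 points for TGYGGT and to 13.8 for TGCGGT, a motif chosen after seeing the data, and did not pass the threshold with TGTGGTT (-2.62, Fisher p = 0.0867), a limit of 2000 bp (-1.10, p = 0.574) or the upper quartile (-6.34, p = 0.133). The score difference passed it at 500 bp (-0.060, permutation p = 0.00918) and 2000 bp (-0.049, p = 0.0146). The share of LUAT-associated genes fell to 6.48% with peaks at or above the median score and 2.83% in the upper quartile, where fewer peaks are counted and the share of all other genes was 1.76% and 0.712%. Peaks at pairs were 10.4% with TSSs within 500 bp, and input peaks at core promoters 1.62% with a limit of 500 bp. For the other values that moved, the cause was not tested. The upstream share and the difference from the 1 kb flanks kept direction and call under every alternative tried. No paired analysis was possible because there was only 1 library per condition, and for the same reason no replicate could be left out. Depth is unknown, so a promoter without a peak is not shown to be without Runx1.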

Other observations

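Families taken by gene symbol, chosen after the data were seen, were set beside the 3.17% of all protein-coding genes. None of the 1434 olfactory and vomeronasal receptor genes had a core promoter peak, which allows up to 0.257%. Of 367 zinc finger genes named Zfp, 20 (5.45%, 3.36 to 8.29) had one. Mitochondrial ribosomal protein genes had a peak at 5 of 77 (6.49%, 2.14 to 14.5), cytosolic ribosomal protein genes at 4 of 79 (5.06%, 1.40 to 12.5), proteasome subunit genes at 1 of 40 (2.50%, 0.0633 to 13.2) and histone genes at 1 of 67 (1.49%, 0.0378 to 8.04). The intervals of these last 4 families include 3.17%.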
